A study of Mus musculus with 4 samples.

Results

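Peroxins are the proteins that build peroxisomes, and 9 genes that encode them were followed in calf muscle of mice with raised PPARα. The genes were Pex11a, Pex3, Pex5, Pex6, Pex7, Pex13, Pex14, Pex16 and Pex19, taken by name from a list that was drawn up with earlier results of these data known, and no value entered the rule itself. All 9 had at least 1 probe set (a set of short array probes that gives 1 signal for a transcript), 19 probe sets in all, among 12393 genes with a probe set named by a single symbol. Total RNA from gastrocnemius muscle was hybridised to 4 Affymetrix mouse arrays, 1 per sample. In 2 samples the mice carried the MCK-PPARa transgene, which overexpresses the nuclear receptor PPARα only in muscle, and MCK is the muscle creatine kinase promoter. The other 2 samples came from non-transgenic (NTG) littermates with no transgene. The labels give no strain, sex, age or treatment, and nothing ties an array to a separate animal beyond its replicate number. p-values therefore measure only the spread between these samples, which may be technical.

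Peroxisomes are small organelles bounded by a single membrane, where very long fatty acids are shortened and hydrogen peroxide is made and broken down. Their membrane proteins are inserted by Pex3, Pex16 and Pex19. Enzymes of the interior are made in the cytosol and carried in by the receptors Pex5 and Pex7, which dock on Pex13 and Pex14, and Pex6 helps to pull the used receptor back out. Pex11a helps to elongate the membrane before it divides, and it is a textbook target gene of PPARα, the receptor that is named for peroxisome proliferation in rodent liver.

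The promoter windows of the members were taken from RefSeq (GRCm38.p6), each with 250 bases before the annotated start and 50 after it. Of the 9 genes 8 had such a window, 11 windows in all, since Pex5 and Pex16 have several starts. Pex19 had no window here. The sequences below are those of Pex11a, Pex16 and Pex6, which with Pex19 had the largest changes among the members, and of Pex7, which had the smallest. Each is written 5′ to 3′ in the direction of the gene, and capitals mark GC boxes (GGGCGG or, on the other strand, CCGCCC).
Pex11a (chr7:79743082-79743381, minus strand): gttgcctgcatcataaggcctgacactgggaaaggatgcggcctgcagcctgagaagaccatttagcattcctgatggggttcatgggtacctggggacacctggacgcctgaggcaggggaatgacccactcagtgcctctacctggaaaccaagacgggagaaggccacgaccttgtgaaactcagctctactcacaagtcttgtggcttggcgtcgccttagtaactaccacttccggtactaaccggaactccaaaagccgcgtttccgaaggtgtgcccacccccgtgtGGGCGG
Pex16, first of 2 windows (chr2:92374426-92374725, plus strand): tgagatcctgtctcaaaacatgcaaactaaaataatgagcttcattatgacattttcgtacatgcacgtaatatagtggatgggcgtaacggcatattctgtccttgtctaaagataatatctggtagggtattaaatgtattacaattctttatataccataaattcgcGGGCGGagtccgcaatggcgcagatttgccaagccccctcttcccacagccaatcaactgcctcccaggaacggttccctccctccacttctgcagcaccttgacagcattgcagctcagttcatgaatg
Pex6 (chr17:46711226-46711525, plus strand): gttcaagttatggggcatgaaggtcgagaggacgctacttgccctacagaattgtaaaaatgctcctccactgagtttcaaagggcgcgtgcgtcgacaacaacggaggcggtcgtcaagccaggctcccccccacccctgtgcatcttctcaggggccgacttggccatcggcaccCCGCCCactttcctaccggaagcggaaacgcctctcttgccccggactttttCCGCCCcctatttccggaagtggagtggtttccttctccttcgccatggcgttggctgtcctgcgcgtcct
Pex7 (chr10:19907625-19907924, minus strand): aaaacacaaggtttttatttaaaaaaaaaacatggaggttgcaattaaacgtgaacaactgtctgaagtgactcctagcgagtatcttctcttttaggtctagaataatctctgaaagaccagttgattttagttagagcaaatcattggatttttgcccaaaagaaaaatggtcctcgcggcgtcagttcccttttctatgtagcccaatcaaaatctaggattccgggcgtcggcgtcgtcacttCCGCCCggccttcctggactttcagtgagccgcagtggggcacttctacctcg

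Motifs were searched on both strands, and a match is a description of the letters only. PPARα binds with its partner RXR to a direct repeat of the half-site AGGTCA with 1 base between the repeats. The exact repeat AGGTCANAGGTCA was in 0 of the 11 windows and in 0.0396% of all 32851 windows of the table. At so low a share 11 windows would hardly ever hold a match, so its absence says nothing about these genes. Repeats with other letters and sites outside the windows were not searched. The half-site AGGTCA alone, which is contained in that repeat, was also in none of the 11, against 16.3% of all windows. At that share so few windows can easily hold no match, so this absence says little. GC boxes were in 8 of the 11 windows and in 7 of the 8 genes, against 35.7% of all windows. The Pex5 windows chr6:124414814-124415113 and chr6:124415018-124415317 overlap and share GC boxes, so the windows are not independent. The CCAAT motif was in 4 windows (Pex5, Pex7 and Pex16), against 37.4%, and TATAAA was in 2 (Pex14 and Pex16), against 13.6%. The GC content of the printed windows was 57.3% for Pex11a, 44.3% for Pex16, 59.3% for Pex6 and 44.0% for Pex7, and the median of all windows was 52.7%. The second Pex16 window, which is not printed, had a GC content of 52.0% and none of these motifs.

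Peroxin transcripts were higher in MCK-PPARa muscle for most members, by up to 2.82-fold for Pex11a, but no member passed the test over all genes. Signals are the authors' MAS5 values, and a change is the MCK-PPARa mean minus the NTG mean of log2(signal + 64.2), with its standard error (SE, n = 2 per group). On this scale the change of a dim gene comes out too small. All 9 members passed the filter on dim signals by their brightest probe set, and by that probe set 8 of 9 members had a change above 0, where 55.5% of the 8402 genes tested did. The median change was 0.72 over the 9 members and 0.054 over all genes tested. Both MCK-PPARa samples lay above both NTG samples for 7 of the 9, against 20.4% of all genes, and below them for 0, against 13.8%. In limma's test with Benjamini-Hochberg adjustment, 0 of 9 members had an adjusted p under 0.05, where 5 genes (0.0595%) of all tested did. At an unadjusted p under 0.05, 4 members were higher (Pex11a, Pex16, Pex19 and Pex6), against 3.32% of all genes, and 0 were lower, against 2.51%. With 2 samples a group, an exact permutation test of 1 gene cannot give a two-sided p below 0.333.

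**Figure D1:**
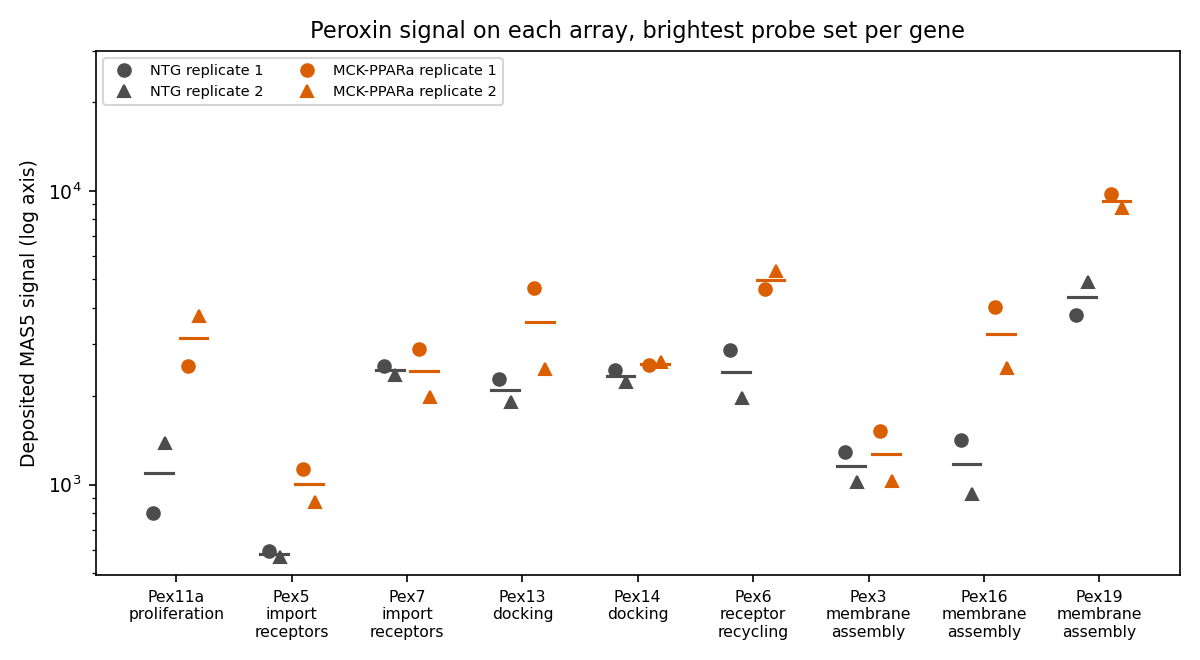
Deposited MAS5 signal (vertical log axis) of the brightest probe set of each of the 9 peroxin genes, grouped by role, with 1 point per array (grey NTG, orange MCK-PPARa; circles replicate 1, triangles replicate 2) and short bars at the mean of the 2 arrays. Both orange points lie above both grey points in 7 genes, and they overlap in Pex7 and Pex3; heights of different genes are not comparable, since probe sets differ in response.

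Pex11a, the peroxisome proliferation factor, had the largest change of the 9 by brightest probe sets on all 4 arrays, but not with every array left out. Without NTG replicate 1 its change was 1.12, against 1.71 for Pex16 and 1.30 for Pex6. Without MCK-PPARa replicate 2 it was 1.22, against 1.75 for Pex16. Its brightest probe set (1449442_at) read 799 (replicate 1) and 1388 (replicate 2) in control muscle, against 2542 and 3749 in transgenic muscle. All further pairs of signals are given in this order of replicates. Each transgenic sample lay above both controls, and within each group the replicate 2 sample was the higher. The change was 1.49 ± 0.37 (SE), or 2.82-fold, with a 95% interval of 0.63 to 2.36 (limma adjusted p = 0.34, unadjusted p = 0.0042). This change was at or above that of 99.1% of the genes tested. The second Pex11a probe set (1419365_at) read 468 and 789 in control and 2036 and 2466 in transgenic muscle, a change of 1.77 ± 0.39. The 2 probe sets thus gave the same order of the 4 samples. For the brightest probe set the difference was 1.59 within replicate number 1 and 1.39 within number 2.

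The membrane assembly factors gave unlike values. Pex16, which helps to place membrane proteins in the early peroxisome, read 1423 and 927 in control and 4026 and 2494 in transgenic muscle (1425021_a_at), a change of 1.41 ± 0.37 or 2.66-fold (95% interval 0.56 to 2.26, limma adjusted p = 0.36). Its groups did not overlap, and here the replicate 1 sample was the higher of each group, the reverse of Pex11a. A dim second Pex16 probe set (1436253_at) read 100.3 and 521 in control and 360 and 659 in transgenic muscle, so its groups overlapped, and its change was 0.84 ± 0.70.

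Pex19, the soluble chaperone of membrane proteins, read 3777 and 4898 in control and 9759 and 8749 in transgenic muscle (1416425_at). The change was 1.09 ± 0.30 or 2.13-fold (95% interval 0.40 to 1.79, limma adjusted p = 0.41). Its second probe set (1448332_at) read 2011 and 4784 in control and 5827 and 10292 in transgenic muscle, a change of 1.30 ± 0.44. In both Pex19 probe sets the transgenic samples were the higher ones, although the order within the MCK-PPARa group turned from one probe set to the other.

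Pex3, the membrane anchor on which Pex19 docks, showed values that overlapped. It read 1295 and 1021 in control and 1516 and 1030 in transgenic muscle (1417442_a_at), a change of 0.12 ± 0.34 with a 95% interval of -0.68 to 0.91 (limma adjusted p = 0.99). The dimmer Pex3 probe set (1454044_a_at) read 449 and 577 in control and 1046 and 497 in transgenic muscle, so only the replicate 1 transgenic sample stood out. Its change was 0.46 ± 0.51. The interval of the brightest probe set runs up to 0.91, so a change of that size is not excluded for Pex3. Even the larger change of Pex11a, 1.49, did not pass the test over all genes.

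The import receptors also differed in their values. Pex5, the receptor for the C-terminal signal called PTS1, read 594 and 566 in control and 1127 and 875 in transgenic muscle (1426770_at). Its groups did not overlap, and the change was 0.72 ± 0.37 (95% interval -0.15 to 1.58, limma adjusted p = 0.92). The other Pex5 probe set (1422063_a_at) read 671 and 415 in control and 609 and 1420 in transgenic muscle. There the difference was carried by the replicate 2 transgenic sample alone, with a difference of -0.13 within replicate number 1 and 1.63 within number 2.

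Pex7, the receptor for the N-terminal signal called PTS2, was the 1 member with a change below 0. It read 2540 and 2352 in control and 2885 and 1988 in transgenic muscle (1418988_at), so that the transgenic samples enclosed the controls. The change was -0.03 ± 0.32, with a 95% interval of -0.76 to 0.71 (limma adjusted p = 0.998). Its sign turned without NTG replicate 1 (0.03) and without MCK-PPARa replicate 2 (0.23).

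The docking proteins were higher in the transgenic samples by small or uneven amounts. Pex13 read 2280 and 1904 in control and 4654 and 2474 in transgenic muscle (1422471_at), a change of 0.69 ± 0.37 (95% interval -0.17 to 1.55, limma adjusted p = 0.93). The replicate 1 transgenic sample was well above the other 3, with a difference of 1.01 within replicate number 1 and 0.37 within number 2. A second Pex13 probe set was dim (1422472_at), at 81.0 and 111 in control and 225 and 126 in transgenic muscle. Pex14, the central docking protein of the import pore, read 2459 and 2239 in control and 2548 and 2619 in transgenic muscle (1419053_at). Its groups lay apart, but by 0.14 ± 0.29 (95% interval -0.53 to 0.80, limma adjusted p = 0.98), so that the lack of overlap goes with a change of 1.098-fold.

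Pex6, an ATPase that extracts the import receptor from the membrane, had 5 probe sets that differed among themselves. The brightest (1451226_at) read 2879 and 1972 in control and 4619 and 5327 in transgenic muscle, a change of 1.04 ± 0.32 or 2.05-fold (95% interval 0.30 to 1.77, limma adjusted p = 0.52). A second (1438138_a_at) read 1545 and 1507 in control and 2101 and 3454 in transgenic muscle, a change of 0.80 ± 0.34. In both of these the transgenic samples were the higher ones. The other three gave changes of 0.51 ± 0.35 (1424078_s_at), 0.26 ± 0.54 (1456302_at, a dim probe set) and 0.10 ± 0.34 (1454738_x_at), and in each of them the groups overlapped. By Affymetrix naming, the suffixes _s and _x mark probe sets whose probes may also match other transcripts. Whether this bears on the disagreement was not tested.

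**Figure D2:**
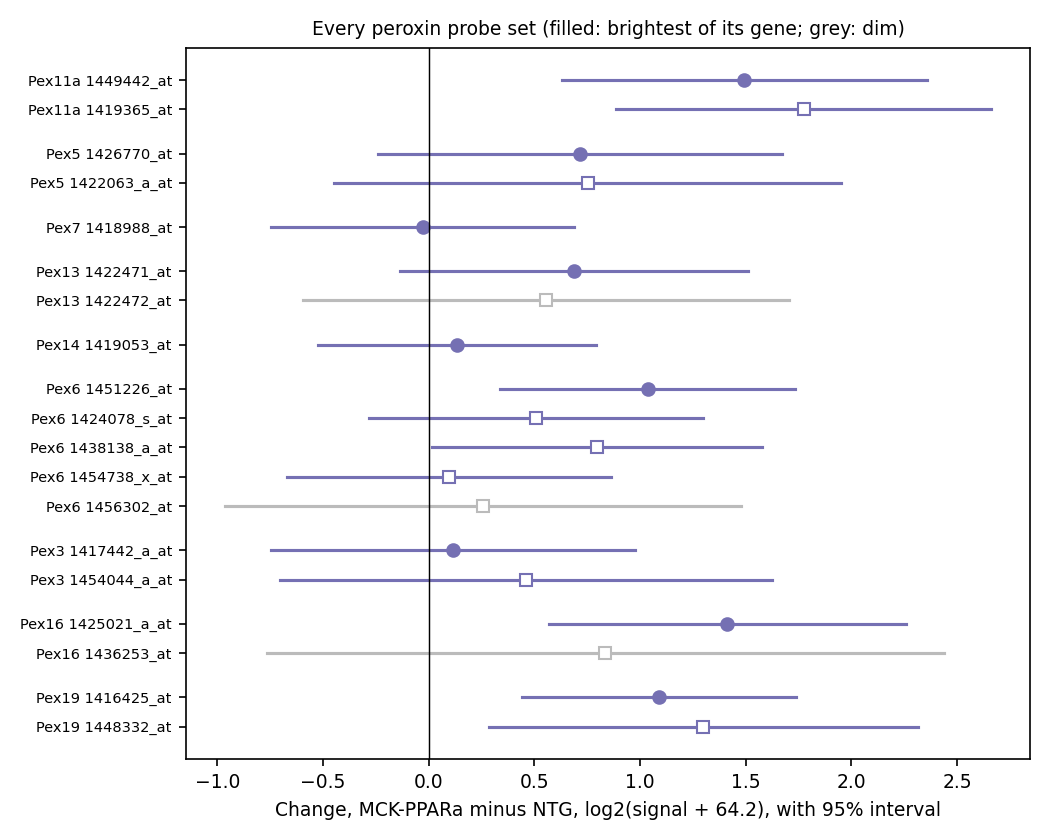
Change, MCK-PPARa minus NTG, on the log2(signal + 64.2) scale (horizontal axis) for each of the 19 peroxin probe sets, with 95% intervals from limma's fit over all probe sets; filled circles are the brightest of a gene, open squares the others, and grey marks those below the filter on dim probe sets. The intervals of both Pex11a and both Pex19 probe sets lie above 0, while the Pex6 probe sets run from 0.10 to 1.04.

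In the fit over all 20380 probe sets with a single symbol and no filter, 18 of the 19 had a change above 0 and 16 were above the filter on dim signals. Both transgenic samples lay above both controls in 11 of 19, against 20.8% of all probe sets. None of the 19 had a limma adjusted p under 0.05, where 0.0196% of all probe sets did, and 7 were higher at an unadjusted p under 0.05, against 3.14%. Those 7 were both of Pex11a, both of Pex19, the brightest of Pex16 and 2 of Pex6. Probe sets of 1 gene measure the same RNA and are not replicates.

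Pex11a was also set against the mean of the other 8 members. The log2 value of Pex11a minus the mean log2 value of the other 8 was -1.19 and -0.24 in control and -0.32 and 0.58 in transgenic muscle. These values overlapped between the groups, since NTG replicate 2 lay above MCK-PPARa replicate 1. The difference between the group means was 0.85, with 0.87 within replicate number 1 and 0.82 within number 2. It went from 0.37 without NTG replicate 1 to 1.32 without NTG replicate 2. Without MCK-PPARa replicate 1 it was 1.30, and leaving out the other transgenic array gave 0.39. The other 8 members themselves had a mean log2 value of 10.95 and 10.74 in control and 11.67 and 11.31 in transgenic muscle, a difference of 0.65 with groups that did not overlap. No test was made of this contrast, because the members were chosen with results known. The proliferation factor is also not alone at its level of change, since Pex16 at 1.41 was near Pex11a at 1.49, each with an SE of 0.37.

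Array pairs with the same replicate number gave the same picture. Within replicate number 1, 9 of 9 members had a difference above 0, and within number 2, 8 of 9. Above 0 in both were 8 of 9, against 35.2% of all genes tested. The members' median was 0.86 within number 1 and 0.58 within number 2, against 0.045 and 0.063 over all genes. Pex6 had the larger difference within number 2 (1.40 against 0.67), while Pex19 had it within number 1 (1.35 against 0.83). The arrays do separate by number: the 5′ control probe set for 18S ribosomal RNA read 2202 (NTG) and 2313 (MCK-PPARa) for replicate 1 and 28.9 and 44.7 for replicate 2. Its part in the peroxin values was not tested, beyond the differences within each number.

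**Figure D3:**
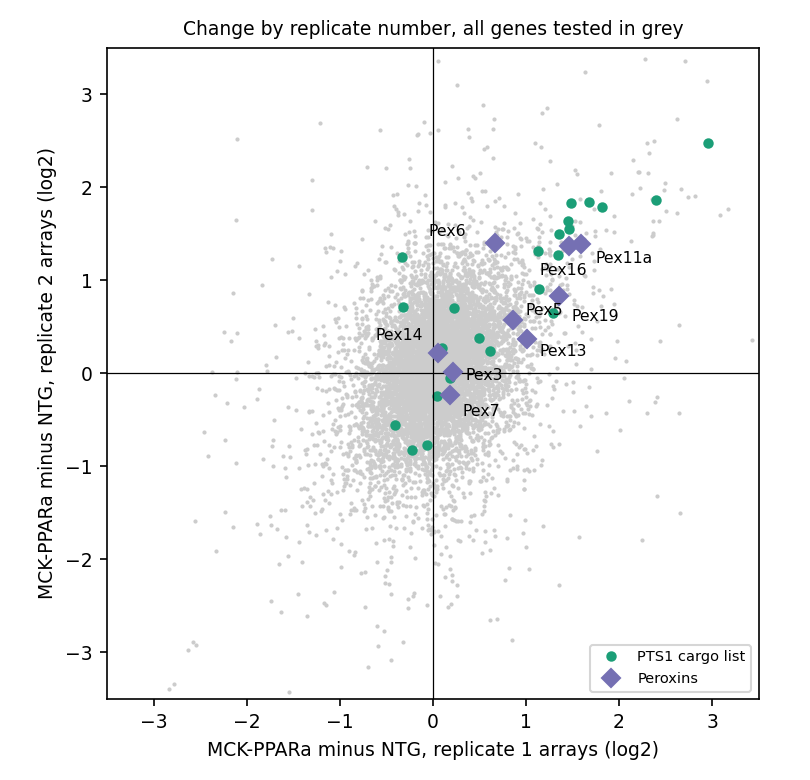
Difference between MCK-PPARa and NTG in log2(signal + 64.2) for the replicate 1 arrays (horizontal axis) and the replicate 2 arrays (vertical axis), with all genes tested in grey (6 lie outside the axes), the PTS1 cargo list in green and the 9 peroxins as violet diamonds. Pex11a and Pex16 lie together at the upper right, 8 peroxins are in the upper right part where both differences are above 0, and Pex7 is just below 0 on the vertical axis.

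Leaving out 1 array changed which members passed, where the lone array left in a group is assumed to vary like the other group. Pex11a passed without NTG replicate 2 (1.87 ± 0.49, limma adjusted p = 0.020) and without MCK-PPARa replicate 1 (1.77 ± 0.45, limma adjusted p = 0.010). Pex16 passed without MCK-PPARa replicate 2 (1.75 ± 0.45, limma adjusted p = 0.014). No other member passed in these fits, and without NTG replicate 1 none did. The share of all genes called was 0.857% without the second control, 1.79% without the first transgenic array, 1.02% without the second and 0.952% without the first control, so these fits called more genes overall. Over all alternatives tried, the change ran from 1.12 to 1.87 for Pex11a, from 1.08 to 1.75 for Pex16, from 0.91 to 1.28 for Pex19 and from 0.61 to 1.30 for Pex6.

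Other genes of the peroxisome were taken from lists of textbook knowledge, which were chosen with earlier results of these data known. Counts within these lists are therefore no independent support. In limma over all genes, 0 of their tested members passed. At an unadjusted p under 0.05 there were 11 PTS1 cargo genes and 1 membrane protein, all higher, and 0 in the other lists, where 3.32% of all genes were higher and 2.51% lower. Of the other peroxins, Pex26 and Pex2 were tested. Pex26, the membrane anchor of Pex6, read 375 and 783 in control and 914 and 947 in transgenic muscle (0.70 ± 0.44, limma adjusted p = 0.96). Its control samples differed more from each other than its transgenic ones. Pex2, a ubiquitin ligase that acts on the import receptor, read 2264 and 2342 in control and 2965 and 2290 in transgenic muscle (0.17 ± 0.30, limma adjusted p = 0.98), with groups that overlapped.

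Genes that divide and tether peroxisomes had a median change of 0.18 over 5 tested. By the brightest probe set the groups overlapped in all 5, where they lay apart in either direction in 34.2% of all genes tested. By smallest p the listed genes were Gdap1 (-0.39 ± 0.59), the fission GTPase Dnm1l (0.19 ± 0.29), its adaptor Mff (0.18 ± 0.30) and the fission factor Fis1 (0.26 ± 0.60). All but the first of these 4 have changes above 0, and all 4 are within 1 SE of 0. A second Mff probe set past the filter went the other way, with 2532 and 3860 in control and 1472 and 1577 in transgenic muscle, so that its groups lay apart. Its change was -1.01 ± 0.33 in the fit over all probe sets (limma adjusted p = 0.68), and the cause of the disagreement was not tested. A second Dnm1l probe set had a change of -0.21 ± 0.40, with groups that overlapped.

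Peroxisomal membrane proteins are the clients of Pex3, Pex16 and Pex19. Of 9 listed 7 were on the array and 5 were tested, with 3 changes above 0 and a median of 0.47. Pxmp4, a small protein of the peroxisomal membrane, read 3159 and 2073 in control and 7650 and 3917 in transgenic muscle (1.08 ± 0.40, limma adjusted p = 0.72). Both transgenic samples were above both controls for Pxmp4, for Tmem135 (0.61 ± 0.31) and for the half-transporter Abcd3 (0.47 ± 0.31). That is 3 of the 5 tested, against 20.4% of all genes, and 0 were below both controls, against 13.8%. The groups overlapped for Pxmp2 (-0.20 ± 0.31), an abundant pore protein, and for Mpv17 (-0.03 ± 0.37). The list is textbook knowledge, and where these proteins lie in the cell was not measured here. Named after its values were seen, the fatty acid transporter Abcd2 lay just under the filter and went the other way, with 522 and 1161 in NTG against 42.5 and 56.8 in MCK-PPARa. Its change was -2.90 ± 0.56 in the fit without a filter (limma adjusted p = 0.20).

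The cargo of the import receptors was split by signal. For PTS2, read by Pex7, 3 of 5 listed genes were tested, with changes of 0.36 ± 0.30 (thiolase Acaa1a), 0.65 ± 0.83 (thiolase Acaa1b) and 0.18 ± 0.29 (the phytanic acid enzyme Phyh). For PTS1, read by Pex5, 27 of 29 listed genes were on the array and 23 passed the filter. Of these 23, 19 had a change above 0, against 55.5% of all genes. Both transgenic samples were above both controls in 14, against 20.4%, and below them in 3, against 13.8%. The median change was 0.96 over the 23, and 0.82 over the 27 without the filter, where the median of all 12393 genes was 0.095. By smallest p they were led by the epoxide hydrolase Ephx2 (2.71 ± 0.40), the β-oxidation enzyme Hsd17b4 (1.76 ± 0.29), the peroxisomal protease Lonp2 (1.66 ± 0.30) and the isomerase Ech1 (1.80 ± 0.35), with limma adjusted p from 0.082 to 0.20. Pex5 itself, at 0.72, stood below the median of the PTS1 genes tested, and Pex7, at -0.03, below the 3 PTS2 genes tested. Mvk, the other PTS2 gene on the array, lay below the filter. Its change was -0.03 ± 0.65 in the fit without a filter, and the median of the 4 PTS2 genes there was 0.27. With an SE of 0.37 for Pex5 and 0.32 for Pex7, these values cannot rank a receptor against its cargo. Some of these enzymes also occur in mitochondria or the cytosol, and the split of cargo between receptors is textbook knowledge, not a measurement here.

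**Figure D4:**
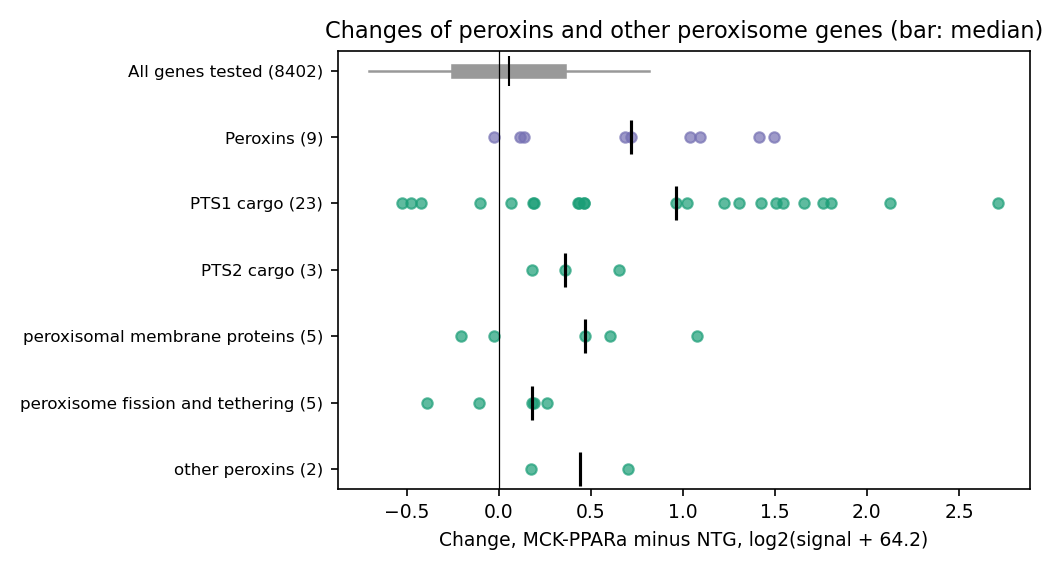
Change, MCK-PPARa minus NTG, on the log2(signal + 64.2) scale (horizontal axis) for each tested gene of the peroxins and of 5 other peroxisome lists, with the number tested in brackets and a black bar at the median; for all 8402 genes the thick bar spans the 25th to 75th percentile and the thin line the 5th to 95th. The peroxin median of 0.72 lies between that of the PTS1 genes (0.96) and that of the membrane proteins (0.47), and the all-gene median is at 0.054.

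The genes whose pattern over the 4 arrays was most like that of Pex11a were found by Euclidean distance between log2 values centred on each gene's mean. They were Dach1 (distance 0.15), Septin1 (0.16), Misp (0.20), Ncam1 (0.25, also in the list of nerve and Schwann cell markers) and Ccndbp1 (0.26). Their changes ran from 1.28 to 1.61, near that of Pex11a because the genes were chosen for their likeness to it. None passed limma's test (adjusted p from 0.40 to 0.72), which for genes chosen in this way is no separate evidence. For Dach1, Misp and Ncam1 both control signals lay below the filter value, so these genes passed it only through the transgenic samples. No other peroxin was among the genes nearest to Pex11a. Pex19 was the nearest member at 0.70, with 1.30% of the other 8401 genes nearer, then Pex6 at 1.04 and Pex5 at 1.15. Pex16 was at 1.28, with 18.2% nearer, and its replicates stood in the opposite order. With 4 arrays many genes come close by such a measure.

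Position was compared through the coding neighbours of each member in the RefSeq gene order (GRCm38.p6), a check added after the data were seen. Of 18 neighbours 9 were tested, with changes from -0.90 to 0.31 and limma adjusted p of at least 0.89. Pex19, higher in the transgenic samples, lies beside Dcaf8, which read 3589 and 6401 in control and 1880 and 3423 in transgenic muscle (-0.90 ± 0.41). Pex6 lies beside Gnmt, which read 1228 and 62.2 in control and 750.3 and 69.5 in transgenic muscle, where the replicate numbers and not the groups stood apart. The coding neighbour of Pex11a on one side is Plin1, the lipid droplet protein of fat cells, which had no probe set with its single symbol and was not analysed here.

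As checks of the samples, Ppara, the gene carried by the transgene, read 633 and 2674 in control and 7969 and 15226 in transgenic muscle. The 10 muscle fibre markers had a median change of 0.12, and their summed signal ran from 1301690 to 1404810 in NTG and from 1363000 to 1565940 in MCK-PPARa. Of 9 markers of fat cells 5 were tested and 0 passed in limma over all genes. At an unadjusted p under 0.05, 4 were higher (Fabp4, Scd1, Adipoq and Retn), against 3.32% of all genes. In the same 4 both transgenic samples lay above both controls, against 20.4% of all genes. All 5 had a change above 0, led by Fabp4 (1.93 ± 0.38), Scd1 (2.32 ± 0.52) and Adipoq (1.34 ± 0.31). Their summed signal was 12873 and 10541 in control and 62901 and 29214 in transgenic muscle. Most of that sum came from Scd1 (5040 and 3023.5 in control, 34036 and 11421 in transgenic muscle) and Fabp4 (4186 and 3820.5, then 21784 and 10839). Adipoq read 1072 and 1504 in control and 3477 and 3180 in transgenic muscle. Of the same list, Lep (102 and 97.2 against 76.9 and 125) and Cidec (250 and 111 against 397 and 186) lay below the filter on dim signals. Fabp4, Scd1 and Lipe are also expressed in muscle fibres. Medians of the macrophage, endothelial, fibroblast and nerve lists were 0.24, 0.18, 0.19 and 0.05. Above 0 were 6 of 6, 7 of 7, 4 of 6 and 3 of 3, against 55.5% of all genes, and none passed in limma over all genes. At an unadjusted p under 0.05, endothelial Kdr (0.91 ± 0.32) and Ncam1 of the nerve list (1.31 ± 0.46) were higher, against 3.32% of all genes. Pdgfra of the fibroblast list (-0.90 ± 0.37) was lower, against 2.51%. The part of fat cells in the peroxin values was not tested. In whole muscle, a change in the share of a cell type and a change in RNA per cell cannot be told apart.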

How the data were processed

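The authors deposited linear signal intensities of 22690 probe sets on 4 arrays, made with MAS5 per the submitters' processing notes, which name no version. The deposited table holds no detection calls. Its intensities have 2% trimmed means of 1500.6 to 1500.7 on every array and medians from 582 to 700.3, and were not normalized further. The number of arrays limits the precision.

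Gene symbols came from the platform annotation and were looked up by Entrez ID. 20380 had 1 symbol, 691 had several and 1555 had none, and the last 2 kinds were left out. Signals were taken as log2(signal + 64.2), the offset being 10% of the median signal. For the test over genes, those with a mean signal under the 40th percentile (455) were dropped and each gene was represented by its brightest probe set. limma 3.58.1 in R 4.3.3 (lmFit, eBayes with a variance trend, 7.78 degrees of freedom, two-sided) compared the groups, with Benjamini-Hochberg adjustment over all 8402 genes and a threshold of 0.05. The fit was tested on simulated data.

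Members and lists were chosen with earlier results of these data known. All members were named, with up to 4 genes of each other list by smallest p and up to 3 of a marker list. Also named were Mpv17 and Abcd2 of the membrane proteins, Mvk of the PTS2 cargo, and Retn, Lipe, Lep and Cidec of the fat cell markers. A search of protein ends for PTS1 was planned and not run, since no protein sequences were used here. Alternatives covered normalization, offset, filter, variance model, replicate block, probe set choice and each array left out.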

Additional observations from a re-analysis of the deposited data

How the results depend on the processing

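Deviations from the group means correlated between arrays of the same replicate number (r = 0.47 across genes, and genes are no independent replicates), but the labels do not say that a number pairs samples. With the replicate number as a block, limma called 211 of 8402 genes (2.51%; 122 higher and 89 lower) in place of 5 (4 higher), and 3 of 9 members in place of 0. The 3 were Pex11a (adjusted p = 0.011), Pex16 (0.013) and Pex19 (0.029), and Pex6 had 0.061. In the other lists the block called 11 of 23 PTS1 cargo genes, 1 of 5 membrane proteins and 3 of 5 fat cell markers in place of 0. The count over all genes was 2 with quantile normalization, 1 with median centring and 3 without a variance trend, all of them higher, and 16 (14 higher) with the mean of a gene's probe sets. With 1 array left out it ran from 72 to 150, and the members called ran from 0 to 1. The difference between Pex11a and the other members ran from 0.37 to 1.32 with 1 array left out. Pex7 changed sign without NTG replicate 1 (0.03) and without MCK-PPARa replicate 2 (0.23), in a range of -0.29 to 0.23. Pex3 did so without NTG replicate 2 (-0.05) and without MCK-PPARa replicate 1 (-0.15), in a range of -0.15 to 0.38. The other members kept their direction in every alternative. Pex5 was not tested under the stricter filter. Detection calls were not used here, so it is not known which dim probe sets exceeded background.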
